A study of Mus musculus with 8 samples.

Results

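The lysosome's enzymes, membrane proteins and proton pump, with the transcription factors known to control their genes, were followed through 8 RNA-seq libraries of HSPCs, the stem and progenitor cells that make blood, from mice. A list of 38 gene symbols, chosen with earlier results of these data known, was looked up among the 24421 genes of the deposited count table. All 38 were listed and 37 had enough reads to be tested. They comprise 8 cathepsins, 10 other hydrolases, 3 activator and lipid-transfer proteins, 6 membrane proteins, 8 subunits of the vacuolar proton pump (V-ATPase) and 3 MiT transcription factors. Expression is given in CPM, the count a gene would have in a library of 1e+06 counts.

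There were 4 groups of 2 libraries each. In dKO_PRMT1, double-knockout (dKO) cells carried wild-type PRMT1, which adds asymmetric dimethyl marks to arginines and makes most of them in mammalian cells. In dKO_MUT, dKO cells carried a form of PRMT1 without enzyme activity, in dKO_EV they carried the empty vector, and in WT_EV wild-type cells carried the empty vector. The series title names beta-catenin (Ctnnb1) and Hoxa9 as the genes of the double knockout, and the design text says that cells were taken from mice after a primary transplant. The source labels call every library dKO, so the groups were taken from the titles. Donor strain, Cre line, ages and the vector's promoter were not stated. Whether the 2 libraries of a group came from separate animals is not stated either, so each p-value covers only the scatter of these libraries, and part of that scatter may be technical.

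Lysosomes break down proteins, lipids and glycans delivered by endocytosis, phagocytosis and autophagy. The V-ATPase pumps protons inward, cathepsins and other hydrolases work at the resulting acid pH, and heavily glycosylated membrane proteins line the inner face. Many of these genes carry an E-box motif bound by the MiT factors (Tfeb, Tfe3 and Mitf), and lysosomal activity in blood stem cells is linked to their quiescence, while macrophages are rich in lysosomes and their proteases.

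The clearest change in the lysosomal genes was a drop in cathepsins and in prosaposin when dKO cells received either form of PRMT1. With wild-type PRMT1, 19 of the 37 members tested were lower and 0 higher than in dKO_EV, while 8.67% of all 12744 genes tested were lower and 5.96% higher; 0 members were higher at an unadjusted p under 0.05 as well, and 0 with DESeq2. With the dead mutant, 16 members were lower and 1 higher, against 7.08% and 4.24% of all genes; without dKO_MUT replicate 2 these counts were 11 and 0. The median log2 fold change of the members was -0.12 with wild-type PRMT1 and -0.12 with the mutant, while over all genes both medians were within 0.0024 of 0. Both comparisons share the dKO_EV libraries. Because the list was chosen with earlier results of these data known, member counts beside shares of all genes are a description and no test. Without dKO_PRMT1 replicate 2, 11 members were lower with wild-type PRMT1. "Rose", "fell", "higher" and "lower" with a test mean an adjusted p under 0.05 by the quasi-likelihood test of edgeR (Benjamini-Hochberg, over all genes tested), and each value after ± is the standard error of a log2 fold change between groups of n = 2, unless SD is written.

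**Figure D1:**
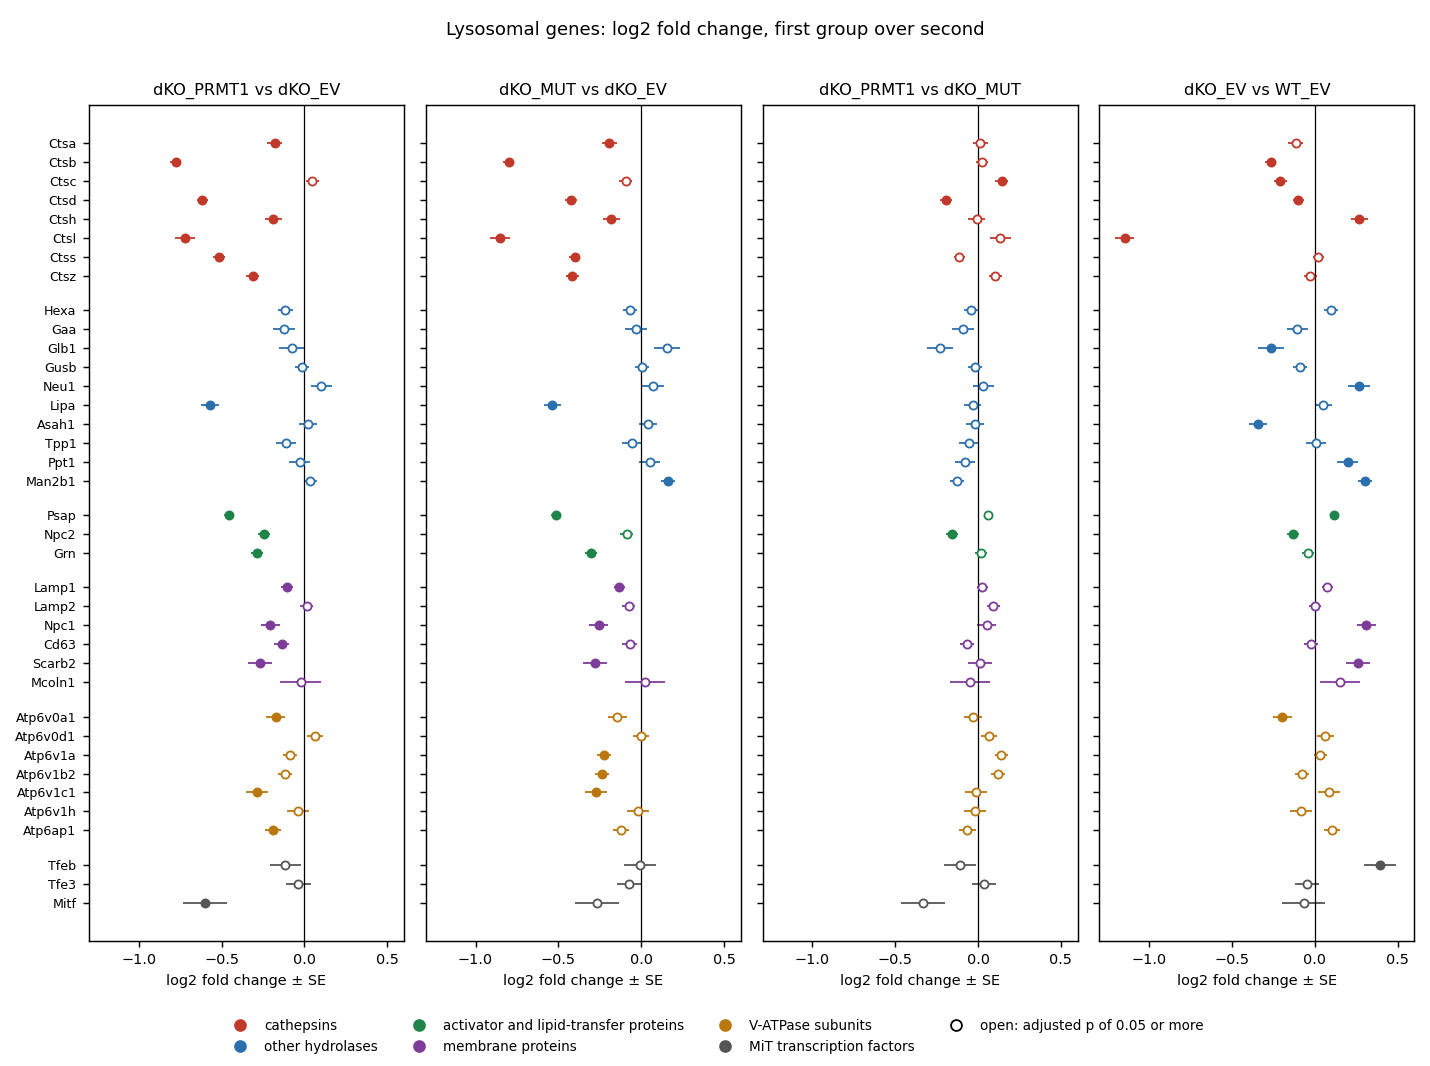
Log2 fold change of each of the 37 tested lysosomal genes, first-named group over second, with its standard error, in 4 comparisons of 2 libraries against 2. Filled points passed an adjusted p of 0.05. Cathepsins and activator proteins lie mostly left of 0 with either insert, with Ctsb at -0.78 ± 0.03 with wild-type PRMT1 and -0.80 ± 0.03 with the mutant.

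Between the knockout and the wild type the members moved both ways: 8 of 37 were higher in dKO_EV than in WT_EV and 8 were lower, against 8.44% and 7% of all genes tested; without WT_EV replicate 2 both counts were 5. Between both inserts few members differed: 1 was higher and 2 were lower in dKO_PRMT1 than in dKO_MUT, against 1.43% and 1.68% of all genes. All 38 together took 13999 to 14129 CPM in dKO_PRMT1, 14048 to 14083 in dKO_MUT, 17447 to 17998 in dKO_EV and 18025 to 18033 in WT_EV. The 2 libraries of each group did not overlap for 30 of 37 members between dKO_PRMT1 and dKO_EV (52.2% of all genes tested), for 29 between dKO_MUT and dKO_EV (48.2%), for 21 between dKO_PRMT1 and dKO_MUT (44.1%) and for 27 between dKO_EV and WT_EV (52.8%). Against WT_EV they did not overlap for 34 members in dKO_PRMT1 (62.6%) and 33 in dKO_MUT (57.9%). In bulk RNA, fewer cells that express a gene and less RNA per cell cannot be told apart.

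The libraries held 15531344 to 22329749 counts. Prmt1 had 981 and 976 CPM in dKO_PRMT1, 1744 and 1758 CPM in dKO_MUT, 189.7 and 194 CPM in dKO_EV and 188 and 192 CPM in WT_EV, so it was higher in all 4 libraries labelled with an insert, and its level was higher with the mutant than with the wild-type form. The genotype label of dKO_MUT replicate 2 names a PRMT2 mutant while its title places it with the other dKO_MUT library. Prmt2 had 3.45 and 3.96 CPM in dKO_MUT replicates 1 and 2, under both dKO_EV libraries (5.66 and 6.18 CPM), and the counts for dKO_MUT are also given without replicate 2. Hoxa9 had 3.76 and 1.87 CPM in dKO_PRMT1, 4.85 and 1.95 CPM in dKO_MUT, 5.79 and 3.63 CPM in dKO_EV and 18.2 and 17.2 CPM in WT_EV, a log2 fold change of -1.93 ± 0.32 (adjusted p = 9.39e-05) for dKO_EV against WT_EV. Ctnnb1 had 372 and 371 CPM in dKO_PRMT1, 360.1 and 368 CPM in dKO_MUT, 391 and 379 CPM in dKO_EV and 444 and 455 CPM in WT_EV. Its log2 fold change for dKO_EV against WT_EV was -0.23 ± 0.04 (adjusted p = 6.47e-05), and with the deleted exons not stated, that level checks nothing. Xist was read in the WT_EV libraries alone and Y-linked genes such as Ddx3y in the 6 dKO libraries alone, so genotype and sex cannot be told apart in any comparison with WT_EV. Kit and Cd34, which mark the labelled cell type, were read in every library (137 to 171 CPM for Kit). Of the lymphoid markers, Cd3e had 0 counts and Nkg7, a granule gene of cytotoxic lymphocytes, had 75.7 to 114 CPM. Of the erythroid markers, Hba-a1 and Hbb-bt had 0 counts and Klf1, a red-cell transcription factor, had at most 11.1 CPM.

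Promoters of the members are shown first because the MiT factors act through an E-box there. RefSeq promoter windows on GRCm38.p6, 250 bases before to 50 after the start, were at hand for 31 of the 38 members. The E-box CACGTG (its own reverse complement, so each site is the same on both strands) was found for 9 of these 31 members (29.0%), against 8.09% of the 27025 genes with a window. The longer palindrome TCACGTGA, which contains CACGTG, was found for 5 (16.1%), against 1.12% of all genes. The 150 bases before the start are printed 5′ to 3′ on the gene's strand, with these motifs in capitals. The start is that of the RefSeq window. For Ctsd and Lamp1 it lies inside the gene as counted, so the last printed bases do too. Ctsd, Lamp1 and Mcoln1 hold sites, Lamp1 with 4 of them, while Ctss and Lipa hold none in this stretch. Transcripts of Ctsd, Lamp1, Ctss and Lipa fell with both inserts, and Mcoln1 passed with neither.
Ctsd (chr7:142387828-142387977, minus strand): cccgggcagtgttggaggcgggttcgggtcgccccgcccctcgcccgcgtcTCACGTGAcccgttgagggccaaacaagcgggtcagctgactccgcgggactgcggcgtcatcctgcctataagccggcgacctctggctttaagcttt
Lamp1 (chr8:13159011-13159160, plus strand): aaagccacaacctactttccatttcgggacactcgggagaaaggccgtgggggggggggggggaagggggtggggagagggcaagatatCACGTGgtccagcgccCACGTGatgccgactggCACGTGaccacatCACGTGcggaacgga
Mcoln1 (chr8:3500369-3500518, plus strand): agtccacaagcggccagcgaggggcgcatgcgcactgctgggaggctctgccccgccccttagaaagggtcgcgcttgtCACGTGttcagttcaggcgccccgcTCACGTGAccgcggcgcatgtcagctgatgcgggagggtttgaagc
Ctss (chr3:95526636-95526785, plus strand): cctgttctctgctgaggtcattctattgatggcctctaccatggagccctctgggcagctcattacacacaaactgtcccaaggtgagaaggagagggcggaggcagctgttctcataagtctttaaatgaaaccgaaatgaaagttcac
Lipa (chr19:34527475-34527624, minus strand): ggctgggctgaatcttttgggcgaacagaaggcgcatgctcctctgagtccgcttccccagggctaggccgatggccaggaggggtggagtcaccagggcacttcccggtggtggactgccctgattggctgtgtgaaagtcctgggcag
The 9 members with CACGTG were Atp6v0d1, Atp6v1a, Ctsa, Ctsd, Ctsl, Gaa, Glb1, Lamp1 and Mcoln1. With wild-type PRMT1, 4 of these 9 fell, as did 11 of the 21 tested members whose window held no such site. With the mutant, 5 of 9 and 6 of 21 fell. Another 7 tested members, Ctsb among them, had no window, and of these 4 fell with wild-type PRMT1 and 5 with the mutant. Of all genes tested, 8.67% were lower with wild-type PRMT1 and 7.08% with the mutant. A match is only a stretch of letters, and no difference between members with and without it was tested.

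The cathepsins, the lysosome's proteases, included the members with the largest falls against dKO_EV, Ctsb and Ctsl. With each insert, 7 of 8 (87.5%) fell relative to dKO_EV, beside 8.67% of all genes with wild-type PRMT1 and 7.08% with the mutant. Ctsc was the exception both times. Their median log2 fold changes were -0.41 and -0.41. Summed, they took 4309.8 ± 66.9 CPM in dKO_PRMT1, 4396 ± 16.6 in dKO_MUT, 6128 ± 212 in dKO_EV and 6844 ± 30.0 in WT_EV (SD, n = 2). For each of the 8, the libraries with wild-type PRMT1 did not overlap those of dKO_EV, which was also so for 52.2% of all genes tested. Relative to WT_EV, 4 cathepsins (50%) were lower and 1 (12.5%) higher in dKO_EV, beside 7% and 8.44% of all genes. Of the lower ones, Ctsd did not pass in several other settings, given below. Without dKO_PRMT1 replicate 2, 5 of the 8 were lower with wild-type PRMT1, and without dKO_MUT replicate 2, 5 of the 8 were lower with the mutant.

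Ctsb (chromosome 14, 63122462 to 63145923, GRCm38), a cysteine protease that cuts inside proteins and also trims their ends, had 1110.1 and 1086 CPM in dKO_PRMT1, 1061 and 1099.9 CPM in dKO_MUT, 1814 and 1948 CPM in dKO_EV and 2259 and 2264 CPM in WT_EV. Its 4 insert libraries lay together, well under the dKO_EV pair, and the WT_EV pair was highest. Against dKO_EV its log2 fold change was -0.78 ± 0.03 (adjusted p = 5.76e-19) with wild-type PRMT1 and -0.80 ± 0.03 (adjusted p = 1.42e-19) with the mutant. Ctsb was also lower in dKO_EV than in WT_EV, at -0.27 ± 0.03 (adjusted p = 2.3e-07). Its annotated exons share 773 bases with Fdft1 on the opposite strand, a gene at 83.4 CPM on average, and the strand setting of the counting is not given in the sources used here.

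Ctsl (chromosome 13, 64363214 to 64370306), a cysteine endopeptidase, had 87.4 and 78.0 CPM in dKO_PRMT1, 78.3 and 72.4 CPM in dKO_MUT, 132 and 140.1 CPM in dKO_EV and 301 and 302 CPM in WT_EV. The WT_EV pair was far above all others, the dKO_EV pair came next, and the pairs with either insert were lowest and overlapped each other. The drop in dKO_EV relative to WT_EV was -1.15 ± 0.06 (adjusted p = 1.32e-17) on the log2 scale, and the inserts came lower again, at -0.72 ± 0.06 (adjusted p = 1.68e-11) with wild-type PRMT1 and -0.85 ± 0.06 (adjusted p = 3.91e-13) with the mutant, both against dKO_EV. Set against WT_EV, the same libraries gave -1.87 ± 0.06 and -2.00 ± 0.06, the largest falls of any member in the 6 comparisons.

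Ctsd (chromosome 7, 142375916 to 142387870), the main aspartic protease of the lysosome, whose promoter with a TCACGTGA site is printed above, had 981 and 949.7 CPM in dKO_PRMT1, 1088 and 1118 CPM in dKO_MUT, 1433 and 1525 CPM in dKO_EV and 1616 and 1554 CPM in WT_EV. Here the inserts separated: both dKO_PRMT1 libraries lay under both dKO_MUT libraries, which lay under both empty-vector groups. The log2 fold changes against dKO_EV were -0.62 ± 0.03 (adjusted p = 3.41e-16) with wild-type PRMT1 and -0.42 ± 0.03 (adjusted p = 9.52e-12) with the mutant, and the difference between both inserts was -0.19 ± 0.03 (adjusted p = 0.000381). Its small difference between dKO_EV and WT_EV (-0.10 ± 0.03, adjusted p = 0.046) did not pass with the filter of 1 CPM in 2 libraries (adjusted p = 0.0611), nor when single libraries were left out, with an adjusted p of 0.309 without dKO_EV replicate 1, 0.413 without WT_EV replicate 1, 0.0554 and 0.0769 without dKO_PRMT1 replicates 1 and 2, and 0.0557 without dKO_MUT replicate 2.

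Ctss (chromosome 3, 95526786 to 95556405), the protease that trims the invariant chain of MHC class II in antigen-presenting cells, had 714 and 715 CPM in dKO_PRMT1, 779.5 and 766 CPM in dKO_MUT, 992 and 1051 CPM in dKO_EV and 1005 and 1009.6 CPM in WT_EV. The empty-vector pairs overlapped each other and stood above all 4 insert libraries. It fell by 0.52 ± 0.04 (log2; adjusted p = 5.45e-14) with wild-type PRMT1 and by 0.40 ± 0.03 (adjusted p = 3.69e-11) with the mutant. Ctsz (chromosome 2, 174427494 to 174438992), a carboxypeptidase, had 506 and 487 CPM in dKO_PRMT1, 458 and 465 CPM in dKO_MUT, 598 and 634 CPM in dKO_EV and 629 and 628 CPM in WT_EV. It showed the same split of the libraries, with log2 fold changes of -0.31 ± 0.04 (adjusted p = 8.25e-08) with wild-type PRMT1 and -0.42 ± 0.04 (adjusted p = 1.55e-10) with the mutant.

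Changes of the other 3 cathepsins were smaller. Ctsa, the serine carboxypeptidase that holds Glb1 and Neu1 in a complex, had 245 and 242 CPM in dKO_PRMT1, 246 and 236 CPM in dKO_MUT, 281 and 271 CPM in dKO_EV and 296 and 302 CPM in WT_EV. All insert libraries were under all dKO_EV libraries, with log2 fold changes of -0.18 ± 0.04 (adjusted p = 0.00407) for wild-type PRMT1 and -0.19 ± 0.04 (adjusted p = 0.00246) for the mutant. The first call was lost without dKO_PRMT1 replicate 2 (adjusted p = 0.0682) and the second without dKO_MUT replicate 2 (adjusted p = 0.0682). Ctsh, an aminopeptidase, had 193 and 183 CPM in dKO_PRMT1, 188 and 190.2 CPM in dKO_MUT, 223 and 206 CPM in dKO_EV and 175 and 181 CPM in WT_EV. It was the only cathepsin that passed the test as higher in dKO_EV than in WT_EV, at 0.27 ± 0.05 (adjusted p = 0.000222), and it fell with both inserts, by 0.19 ± 0.05 (adjusted p = 0.00929) with wild-type PRMT1 and 0.18 ± 0.05 (adjusted p = 0.0159) with the mutant, on the log2 scale. Those falls were lost without dKO_EV replicate 1, at adjusted p-values of 0.121 and 0.177, and also without dKO_PRMT1 replicate 2 for wild-type PRMT1 (adjusted p = 0.193) and without either dKO_MUT library for the mutant (adjusted p = 0.111 and 0.0713). Ctsc, the dipeptidyl peptidase that activates the serine proteases of neutrophil and mast cell granules, had 520.3 and 522 CPM in dKO_PRMT1, 484 and 459.9 CPM in dKO_MUT, 505 and 504 CPM in dKO_EV and 583 and 584 CPM in WT_EV. Its dKO_EV libraries were under WT_EV (-0.21 ± 0.04, adjusted p = 8.59e-05), and it was the single member higher in dKO_PRMT1 than in dKO_MUT (0.14 ± 0.04, adjusted p = 0.0251), a call lost without either dKO_PRMT1 library (adjusted p = 0.233 and 0.239) or without dKO_MUT replicate 2 (adjusted p = 0.398).

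**Figure D2:**
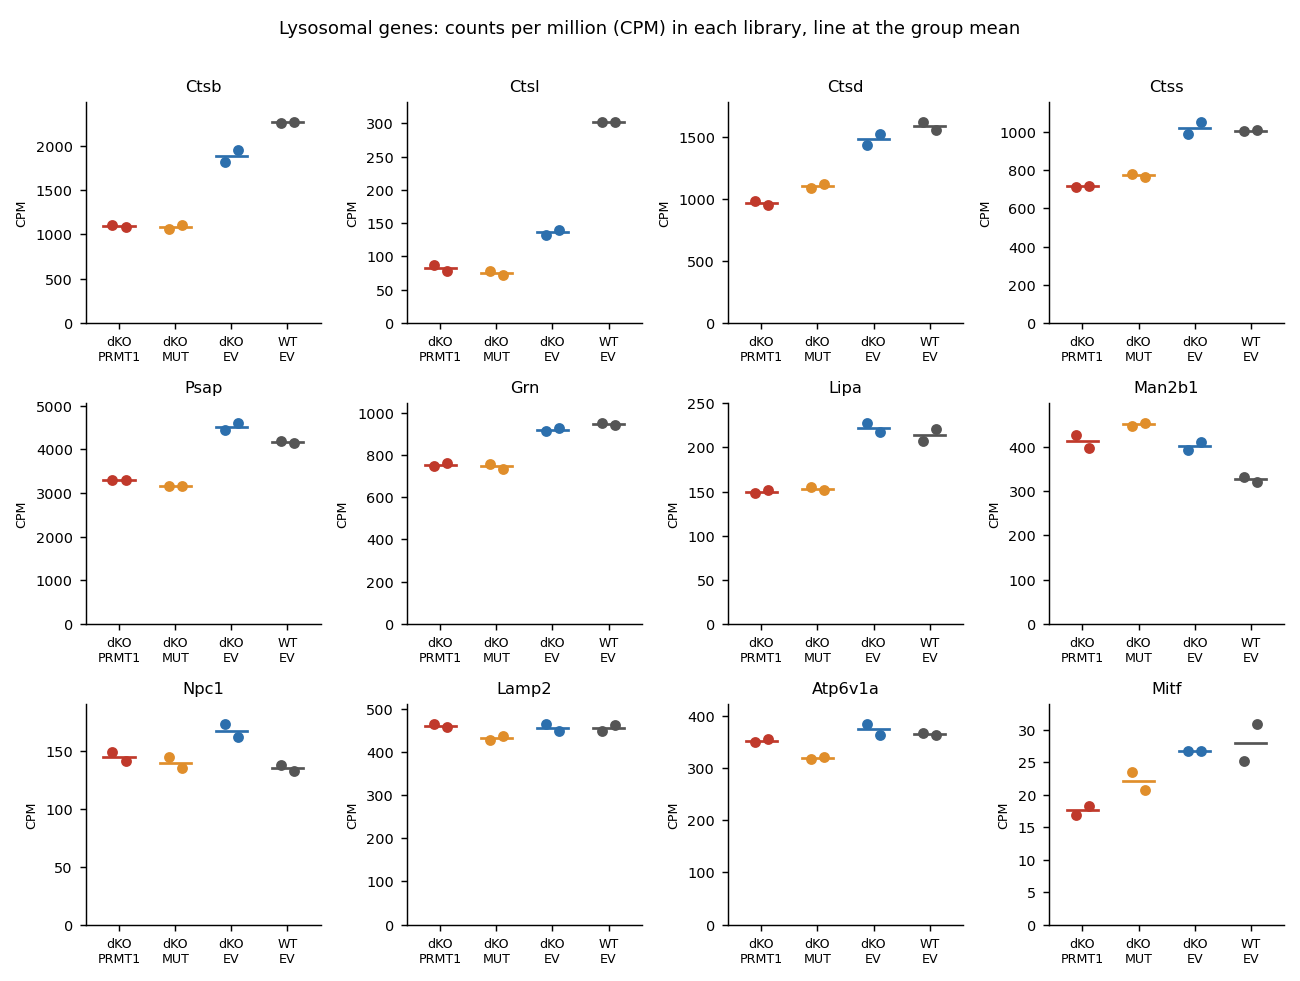
CPM of 12 lysosomal genes in each of the 8 libraries, by group, with a line at the group mean of 2 libraries; each axis starts at 0. Ctsb, Ctsd, Ctss, Psap, Grn and Lipa are lower in all 4 insert libraries than in all 4 empty-vector libraries, Ctsl is highest in WT_EV, and Lamp2 lies at a like level in all groups.

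The other hydrolases, most of which act on glycans, lipids or glycogen, gave few calls against dKO_EV. Only 1 of the 10, Lipa, fell with wild-type PRMT1 and none rose, and with the mutant Lipa fell and Man2b1 rose. At 10% lower with each insert, the class lay near the 8.67% and 7.08% of all genes. The 1 rise with the mutant was 10%, beside 4.24%. Class medians were -0.05 and 0.02. Relative to WT_EV, 3 (30%) were higher and 2 (20%) lower in dKO_EV, beside 8.44% and 7% of all genes. Their summed level was 1824 ± 24.7 CPM in dKO_PRMT1, 1908 ± 6.31 in dKO_MUT, 1928 ± 53.8 in dKO_EV and 1875 ± 20.02 in WT_EV (SD, n = 2). Lipa (chromosome 19, 34492316 to 34527474), the acid lipase that frees cholesterol and fatty acids from lipoprotein lipids, had 148 and 151 CPM in dKO_PRMT1, 155 and 151 CPM in dKO_MUT, 228 and 217 CPM in dKO_EV and 208 and 221 CPM in WT_EV. Both empty-vector groups overlapped, and all insert libraries lay well under them. Its log2 fold change was -0.57 ± 0.05 (adjusted p = 7.75e-11) with wild-type PRMT1 and -0.54 ± 0.05 (adjusted p = 3.62e-10) with the mutant, and its printed promoter stretch holds neither motif.

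Several hydrolases differed between the empty-vector groups instead. Man2b1 (chromosome 8, 85083269 to 85098739), the lysosomal alpha-mannosidase, had 428 and 398 CPM in dKO_PRMT1, 448 and 454 CPM in dKO_MUT, 394 and 411 CPM in dKO_EV and 332 and 322 CPM in WT_EV. Every dKO library was above WT_EV, by a log2 fold change of 0.30 ± 0.04 (adjusted p = 1.73e-06) for dKO_EV, and the mutant was higher again than dKO_EV (0.16 ± 0.04, adjusted p = 0.00649), which was lost without dKO_MUT replicate 2 (adjusted p = 0.0607) or dKO_EV replicate 1 (adjusted p = 0.0597). Neu1 (chromosome 17, 34931253 to 34937297), the lysosomal sialidase, had 102 and 107 CPM in dKO_PRMT1, 103 and 101 CPM in dKO_MUT, 99.98 and 95.0 CPM in dKO_EV and 80.4 and 81.4 CPM in WT_EV. It too was above WT_EV in every dKO library, by a log2 fold change of 0.27 ± 0.07 (adjusted p = 0.00359) for dKO_EV. Asah1 (chromosome 8, 41340643 to 41374697), acid ceramidase, had 146 and 145 CPM in dKO_PRMT1, 149 and 146 CPM in dKO_MUT, 144 and 143 CPM in dKO_EV and 178 and 187 CPM in WT_EV. The 6 dKO libraries lay within a few CPM of each other and under WT_EV, with a log2 fold change of -0.34 ± 0.05 (adjusted p = 8.14e-06) for dKO_EV.

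Ppt1, a thioesterase that removes fatty acids from proteins, had 114 and 110.5 CPM in dKO_PRMT1, 117 and 120.0 CPM in dKO_MUT, 109 and 119 CPM in dKO_EV and 100.01 and 99.6 CPM in WT_EV. It was higher in dKO_EV than in WT_EV (0.20 ± 0.06, adjusted p = 0.0274), without overlap, but did not pass with DESeq2 (adjusted p = 0.0558). Glb1, beta-galactosidase, had 67.2 and 71.0 CPM in dKO_PRMT1, 80.5 and 81.6 CPM in dKO_MUT, 65.0 and 79.9 CPM in dKO_EV and 86.8 and 88.4 CPM in WT_EV. Its WT_EV pair was highest and its dKO_EV pair the most spread, with a log2 fold change of -0.27 ± 0.08 (adjusted p = 0.0167). Both calls were lost without WT_EV replicate 1 (adjusted p = 0.129 for Ppt1 and 0.063 for Glb1) or WT_EV replicate 2 (adjusted p = 0.162 and 0.105), Ppt1 also without dKO_EV replicate 2 (adjusted p = 0.273) and Glb1 also without dKO_EV replicate 1 (adjusted p = 0.269). Glb1 shares 175 exon bases with Tmppe on the same strand, and Ppt1 shares 128 with the more abundant Cap1 on the opposite strand, so reads may have been shared. Hexa (a beta-hexosaminidase subunit), Gusb (beta-glucuronidase) and Tpp1 (a tripeptidyl peptidase) passed the test in no comparison, with all log2 fold changes between -0.11 and 0.10. Gaa, which degrades glycogen, differed only between dKO_PRMT1 and WT_EV (-0.23 ± 0.07, adjusted p = 0.00815), and not without either dKO_PRMT1 library (adjusted p = 0.0673 and 0.0558) or without WT_EV replicate 2 (adjusted p = 0.0949).

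The activator and lipid-transfer proteins fell with the cathepsins. All 3 were lower with wild-type PRMT1 than in dKO_EV, and 2 of 3 with the mutant, beside 8.67% and 7.08% of all genes. Psap (chromosome 10, 60277628 to 60302600), the precursor of the saposins that present sphingolipids to their hydrolases, had 3288 and 3301 CPM in dKO_PRMT1, 3168 and 3149 CPM in dKO_MUT, 4442 and 4599 CPM in dKO_EV and 4179 and 4154 CPM in WT_EV. Psap was the most abundant member per length, at 2726 TPM (a level per length that sums to the same total in every library) averaged over the 8 libraries. Its dKO_EV pair was highest and the mutant pair lowest, with no overlap between any groups. Psap was slightly higher in dKO_EV than in WT_EV (0.12 ± 0.03, adjusted p = 0.00257), while its log2 fold changes against dKO_EV were -0.46 ± 0.03 (adjusted p = 3.38e-15) with wild-type PRMT1 and -0.52 ± 0.03 (adjusted p = 1.42e-16) with the mutant.

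Grn (chromosome 11, 102430322 to 102436809), progranulin, which supports lysosomal enzymes and binds prosaposin, had 749.8 and 760.3 CPM in dKO_PRMT1, 756 and 736 CPM in dKO_MUT, 914 and 927 CPM in dKO_EV and 952 and 944 CPM in WT_EV. The insert libraries formed 1 cluster and the empty-vector libraries another. It fell with wild-type PRMT1 by 0.29 ± 0.03 (adjusted p = 4.48e-08) and with the mutant by 0.30 ± 0.03 (adjusted p = 1.51e-08) on the log2 scale. Npc2 (chromosome 12, 84754559 to 84773112), the soluble protein that hands cholesterol to Npc1, had 484 and 481 CPM in dKO_PRMT1, 527 and 548 CPM in dKO_MUT, 571 and 572 CPM in dKO_EV and 617 and 636 CPM in WT_EV. Here the dKO_PRMT1 pair was lowest and the dKO_MUT pair came between it and dKO_EV. Its fall with wild-type PRMT1 was -0.24 ± 0.04 (adjusted p = 5.44e-06), the value with the mutant was -0.09 ± 0.04 (adjusted p = 0.128), and the difference between both inserts was -0.16 ± 0.04 (adjusted p = 0.0105). That difference did not pass without either dKO_PRMT1 library (adjusted p = 0.121 and 0.141) or without dKO_MUT replicate 2 (adjusted p = 0.188). Npc2 was also lower in dKO_EV than in WT_EV (-0.13 ± 0.04, adjusted p = 0.011), though not without WT_EV replicate 2 (adjusted p = 0.171).

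**Figure D3:**
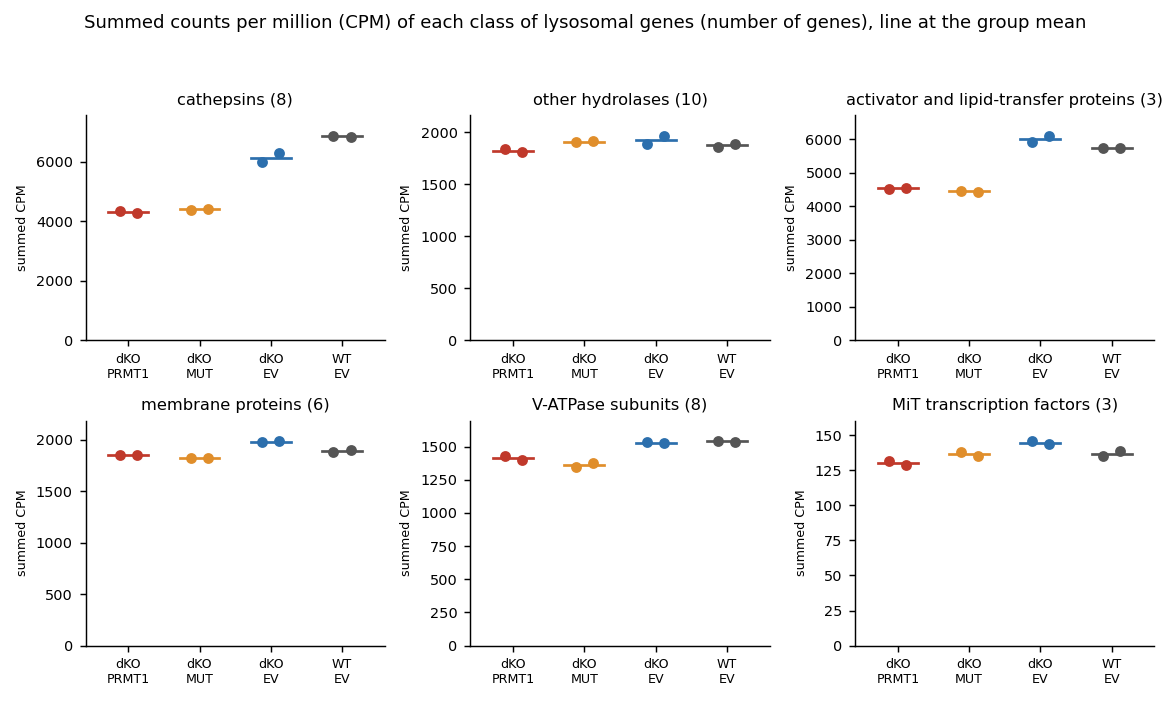
Summed CPM of each class of lysosomal genes in each library, by group, with a line at the group mean of 2 libraries; each axis starts at 0. Cathepsins and activator proteins are lower in the 4 insert libraries than in the 4 empty-vector libraries, while the other hydrolases stay between 1806 and 1966 CPM.

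The membrane proteins moved little. Of the 6, 4 (66.7%) were lower with wild-type PRMT1 and 3 (50%) with the mutant, beside 8.67% and 7.08% of all genes. Class medians were -0.12 and -0.10, and 2 (33.3%) were higher in dKO_EV than in WT_EV, beside 8.44% of all genes. These counts rest on single libraries: with wild-type PRMT1 they were 1 and 0 without dKO_PRMT1 replicates 1 and 2, and 2 without either dKO_EV library, and with the mutant 0 without dKO_MUT replicate 2. Lamp1 (chromosome 8, 13159135 to 13175338), an abundant glycoprotein of the limiting membrane whose promoter holds 4 CACGTG sites, had 819 and 829 CPM in dKO_PRMT1, 816 and 803 CPM in dKO_MUT, 867 and 906 CPM in dKO_EV and 837 and 848 CPM in WT_EV. The dKO_EV pair was highest and the insert libraries lay just under WT_EV, with log2 fold changes against dKO_EV of -0.11 ± 0.03 (adjusted p = 0.034) for wild-type PRMT1 and -0.13 ± 0.03 (adjusted p = 0.00831) for the mutant. The first did not pass without dKO_PRMT1 replicate 1 (adjusted p = 0.245), dKO_PRMT1 replicate 2 (adjusted p = 0.147) or dKO_EV replicate 2 (adjusted p = 0.256), nor the second without dKO_MUT replicate 2 (adjusted p = 0.111) or dKO_EV replicate 2 (adjusted p = 0.124). Lamp2, its partner in autophagy, had 464 and 457 CPM in dKO_PRMT1, 427 and 437 CPM in dKO_MUT, 464 and 448 CPM in dKO_EV and 449 and 463 CPM in WT_EV. It passed in no comparison. Mcoln1, the calcium channel whose promoter carries both motifs, had 25.3 and 26.4 CPM in dKO_PRMT1, 27.2 and 26.2 CPM in dKO_MUT, 28.1 and 24.6 CPM in dKO_EV and 24.8 and 22.5 CPM in WT_EV, and it too passed in none.

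Npc1, which moves cholesterol out of the lysosome, had 149 and 141 CPM in dKO_PRMT1, 145 and 135 CPM in dKO_MUT, 173 and 162 CPM in dKO_EV and 138 and 132 CPM in WT_EV. It was highest in dKO_EV, above WT_EV by a log2 fold change of 0.31 ± 0.06 (adjusted p = 0.000128), and it fell with both inserts, at -0.21 ± 0.06 (adjusted p = 0.0107) with wild-type PRMT1 and -0.26 ± 0.06 (adjusted p = 0.0015) with the mutant. The fall with wild-type PRMT1 was lost without dKO_PRMT1 replicate 2 (adjusted p = 0.19) or dKO_EV replicate 1 (adjusted p = 0.103), and that with the mutant without dKO_MUT replicate 2 (adjusted p = 0.0588). Scarb2, the receptor that carries glucocerebrosidase to the lysosome, had 75.1 and 73.6 CPM in dKO_PRMT1, 75.4 and 71.9 CPM in dKO_MUT, 94.3 and 85.1 CPM in dKO_EV and 74.5 and 75.1 CPM in WT_EV. It followed the same order, higher in dKO_EV than in WT_EV (0.26 ± 0.07, adjusted p = 0.0107) and lower with the inserts than in dKO_EV (-0.27 ± 0.07, adjusted p = 0.00872 with wild-type PRMT1 and -0.28 ± 0.07, adjusted p = 0.00709 with the mutant). Each of these Scarb2 calls was lost without dKO_EV replicate 1, at adjusted p-values of 0.128, 0.102 and 0.0973, and likewise without either WT_EV library (adjusted p = 0.0853 and 0.075), either dKO_PRMT1 library (adjusted p = 0.057 and 0.0979) or dKO_MUT replicate 2 (adjusted p = 0.0895) for the comparison that library is in. Cd63, a tetraspanin of late endosomes, had 316 and 330.3 CPM in dKO_PRMT1, 330.5 and 347 CPM in dKO_MUT, 348 and 363 CPM in dKO_EV and 359 and 364 CPM in WT_EV. Its log2 fold change with wild-type PRMT1 was -0.14 ± 0.04 (adjusted p = 0.0229), lost without either dKO_PRMT1 library (adjusted p = 0.288 and 0.0508) or without dKO_EV replicate 2 (adjusted p = 0.169).

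The proton pump has a cytosolic V1 part, which burns ATP, and a membrane V0 part, through which protons pass. Of the 7 subunits tested, 3 were lower with wild-type PRMT1 (Atp6v1c1, Atp6v0a1 and Atp6ap1) and 3 with the mutant (Atp6v1a, Atp6v1b2 and Atp6v1c1). No subunit rose in any of the 6 comparisons. The lower calls were 42.9% of the 7 with each insert, beside 8.67% and 7.08% of all genes. Without dKO_PRMT1 replicate 2 or dKO_EV replicate 2, 1 was lower with wild-type PRMT1. Class medians were -0.12 and -0.14. Atp6v1a (chromosome 16, 44085404 to 44139019), the catalytic V1 subunit, had 349 and 355 CPM in dKO_PRMT1, 318 and 322 CPM in dKO_MUT, 384 and 364 CPM in dKO_EV and 367 and 364 CPM in WT_EV. Its dKO_MUT pair was under all other libraries, at -0.23 ± 0.04 (adjusted p = 0.00014) against dKO_EV. With wild-type PRMT1 the value was -0.09 ± 0.04 (adjusted p = 0.18), and the difference between both inserts was 0.14 ± 0.04 (adjusted p = 0.0548). Atp6v1b2 (chromosome 8, 69088736 to 69113717), which pairs with it in the V1 ring, had 343 and 337 CPM in dKO_PRMT1, 304 and 323 CPM in dKO_MUT, 366 and 373 CPM in dKO_EV and 394 and 386 CPM in WT_EV. Its dKO_MUT pair was again lowest, with -0.24 ± 0.04 (adjusted p = 7.87e-05) for the mutant and -0.12 ± 0.04 (adjusted p = 0.0507) for wild-type PRMT1, both against dKO_EV, and 0.12 ± 0.04 (adjusted p = 0.14) between the inserts.

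Atp6v1c1, which joins V1 to V0, had 93.3 and 90.2 CPM in dKO_PRMT1, 92.6 and 92.9 CPM in dKO_MUT, 106 and 118 CPM in dKO_EV and 107 and 104 CPM in WT_EV. It fell with both inserts, at -0.29 ± 0.07 (adjusted p = 0.00174) with wild-type PRMT1 and -0.27 ± 0.07 (adjusted p = 0.00393) with the mutant, and both calls were lost without dKO_EV replicate 2 (adjusted p = 0.0694 and 0.113). Atp6v0a1, a V0 subunit, had 152 and 141 CPM in dKO_PRMT1, 149 and 149.8 CPM in dKO_MUT, 174 and 157 CPM in dKO_EV and 187 and 191 CPM in WT_EV. It was lower in dKO_EV than in WT_EV (-0.20 ± 0.06, adjusted p = 0.0123) and lower again with wild-type PRMT1 (-0.17 ± 0.06, adjusted p = 0.0309). The first was lost without dKO_EV replicate 2 (adjusted p = 0.169) or WT_EV replicate 2 (adjusted p = 0.108), and the second without dKO_PRMT1 replicate 2 (adjusted p = 0.375) or dKO_EV replicate 1 (adjusted p = 0.288), and with DESeq2 (adjusted p = 0.0682). Atp6ap1, an assembly factor of the pump, had 209.6 and 196 CPM in dKO_PRMT1, 209 and 215 CPM in dKO_MUT, 226 and 237 CPM in dKO_EV and 216 and 215 CPM in WT_EV. Its fall with wild-type PRMT1 (-0.19 ± 0.05, adjusted p = 0.00584) was lost without dKO_PRMT1 replicate 2 (adjusted p = 0.187) or dKO_EV replicate 2 (adjusted p = 0.0772). Atp6v0d1 and Atp6v1h passed in no comparison, at 176 to 194 CPM and 85.8 to 96.0 CPM over the 8 libraries. Atp6v0c, the proteolipid of the proton channel, had at most 0.318 CPM and was not tested. It shares 1117 exon bases on the same strand with Atp6v0c-ps2, which was at 0, and how reads that fit both were counted is not given in the sources used here.

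Of the MiT factors, Mitf (chromosome 6, 97807058 to 98021358) was the one that fell with an insert. It had 16.9 and 18.3 CPM in dKO_PRMT1, 23.5 and 20.7 CPM in dKO_MUT, 26.7 and 26.7 CPM in dKO_EV and 25.2 and 30.9 CPM in WT_EV. The dKO_PRMT1 pair was lowest, the dKO_MUT pair came next, and the empty-vector groups overlapped, at a low level throughout. Mitf fell with wild-type PRMT1 by 0.60 ± 0.13 on the log2 scale (adjusted p = 0.00112), and its value with the mutant was -0.27 ± 0.13 (adjusted p = 0.207). The difference between the inserts was -0.33 ± 0.13 (adjusted p = 0.218), so a difference was not shown. Mitf is also a factor of mast cells. Of 6 mast cell and basophil markers tested, 5 were lower with wild-type PRMT1 than in dKO_EV (8.67% of all genes) and 4 were higher with the mutant (4.24%). Their part in the fall of Mitf was not tested. Tfeb (chromosome 17, 47737037 to 47792416) had 45.5 and 42.4 CPM in dKO_PRMT1, 47.2 and 47.6 CPM in dKO_MUT, 49.9 and 45.6 CPM in dKO_EV and 38.8 and 33.7 CPM in WT_EV. All 6 dKO libraries were above WT_EV, by a log2 fold change of 0.39 ± 0.10 (adjusted p = 0.00356) for dKO_EV, although not without WT_EV replicate 2 (adjusted p = 0.144). Tfe3, at 68.9 and 68.0 CPM in dKO_PRMT1, 67.0 and 66.6 CPM in dKO_MUT, 69.2 and 71.1 CPM in dKO_EV and 71.3 and 73.9 CPM in WT_EV, passed in no comparison. These are levels of RNA, and the activity of the 3 factors, which is set by their place in the cell, was not measured.

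Between the libraries of dKO_PRMT1 and dKO_MUT, 34 of the 37 members did not pass the test, and the 3 that did (Ctsd, Ctsc and Npc2) are given above. Without dKO_MUT replicate 2, the library whose labels disagree, 1 member was lower and 0 were higher in dKO_PRMT1 than in dKO_MUT, and that member was Ctsd. Of the 37 log2 fold changes between both inserts, 16 were positive and 21 negative, between -0.33 for Mitf and 0.14 for Ctsc.

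Relative to WT_EV, 19 members were lower and 4 higher in dKO_PRMT1, against 12.2% and 11% of all genes tested, and 16 were lower and 4 higher in dKO_MUT, against 9.96% and 9.41% (15 and 4 without dKO_MUT replicate 2). Every cathepsin but Ctsh was lower in each, with Ctsb at -1.04 ± 0.03 for dKO_PRMT1 and -1.07 ± 0.03 for dKO_MUT. The 4 higher members were Man2b1, Neu1, Ppt1 and Tfeb in both comparisons. Their log2 fold changes were 0.34 ± 0.04, 0.37 ± 0.07, 0.17 ± 0.06 and 0.28 ± 0.10 in dKO_PRMT1, where that of Ppt1 was lost without any 1 of the dKO_PRMT1, dKO_MUT or WT_EV libraries (adjusted p = 0.0511 to 0.273) and with DESeq2 (adjusted p = 0.0857), and that of Tfeb without either dKO_PRMT1 library (adjusted p = 0.268 and 0.061) or WT_EV replicate 2 (adjusted p = 0.411) or with DESeq2 (adjusted p = 0.0738). In dKO_MUT they were 0.46 ± 0.04, 0.34 ± 0.07, 0.25 ± 0.06 and 0.39 ± 0.10, and Tfeb was lost without WT_EV replicate 2 (adjusted p = 0.127). Ctsh, Npc1 and Scarb2, which were higher in dKO_EV than in WT_EV and lower with the inserts, did not pass the test between dKO_PRMT1 and WT_EV, at 0.08 ± 0.05, 0.10 ± 0.06 and -0.01 ± 0.07.

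Per length, after Psap came Ctsd at 1292 TPM, Ctss at 1272 TPM and Ctsz at 778 TPM, each a mean of the 8 libraries. At the low end were Tfeb at 30.5 TPM, Mcoln1 at 25.2 TPM and Mitf at 8.97 TPM. Of the members with the largest falls, Ctsb was at 656 TPM, Ctsl at 149 TPM and Lipa at 123 TPM.

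Of 108 further genes of the pathway tested, 20 were lower and 8 higher with wild-type PRMT1 and 20 lower and 4 higher with the mutant, with medians of -0.05 and -0.05. The lower calls were 18.5% and 18.5% of these genes, beside 8.67% and 7.08% of all genes. The higher calls were 7.41% and 3.70%, beside 5.96% and 4.24%. Of 31 further hydrolases, 4 were lower and 2 higher with wild-type PRMT1, and 6 lower and 1 higher with the mutant (0 higher without either dKO_MUT library or either dKO_PRMT1 library). With wild-type PRMT1 these were 12.9% lower and 6.45% higher, near the 8.67% and 5.96% of all genes. With the mutant, 19.4% were lower and 3.23% higher, beside 7.08% and 4.24% of all genes. Lgmn, the asparaginyl endopeptidase that processes cathepsins, had 121 and 110.3 CPM in dKO_PRMT1, 107 and 108 CPM in dKO_MUT, 236 and 240.4 CPM in dKO_EV and 322 and 331 CPM in WT_EV. Its WT_EV pair was highest, the dKO_EV pair came next and the insert libraries were lowest, without overlap between these levels, with log2 fold changes against dKO_EV of -1.05 ± 0.05 (adjusted p = 1.32e-17) with wild-type PRMT1 and -1.15 ± 0.05 (adjusted p = 6.98e-19) with the mutant. Of 25 further membrane proteins tested, 8 were lower and 1 higher with wild-type PRMT1 and 9 lower and 0 higher with the mutant; the lower counts were 5 without either dKO_PRMT1 library and 5 without dKO_MUT replicate 2. The lower calls were 32% and 36% of these membrane proteins, beside 8.67% and 7.08% of all genes. They included Cd68, a glycoprotein rich in macrophage lysosomes (-0.43 ± 0.05, adjusted p = 3.05e-08 with wild-type PRMT1 and -0.65 ± 0.05, adjusted p = 3.32e-12 with the mutant), the peptide transporter Slc15a3 (-0.72 ± 0.06 with wild-type PRMT1 and -0.80 ± 0.06 with the mutant) and the phagosomal metal transporter Slc11a1 (-0.84 ± 0.09 with wild-type PRMT1 and -0.50 ± 0.09 with the mutant).

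Of 10 further V-ATPase subunits, 2 were lower with each insert and 1 higher with wild-type PRMT1 (0 higher without dKO_EV replicate 1 or either dKO_PRMT1 library). The lower calls were 20% of the list with each insert, beside 8.67% and 7.08% of all genes. The higher call with wild-type PRMT1 was 10%, beside 5.96%. Atp6v0d2, the d subunit typical of osteoclasts and macrophages, had 23.7 and 27.4 CPM in dKO_PRMT1, 14.6 and 16.6 CPM in dKO_MUT, 35.3 and 49.5 CPM in dKO_EV and 50.6 and 49.7 CPM in WT_EV. Its log2 fold change against dKO_EV was -0.74 ± 0.12 (adjusted p = 2.78e-05) with wild-type PRMT1 and -1.45 ± 0.13 (adjusted p = 7.26e-11) with the mutant, and it was higher in dKO_PRMT1 than in dKO_MUT (0.72 ± 0.13, adjusted p = 0.000564), which was lost without dKO_PRMT1 replicate 2 (adjusted p = 0.0514). Tcirg1, its a3 partner, was the other (-0.16 ± 0.05 with wild-type PRMT1 and -0.30 ± 0.05 with the mutant), its fall with wild-type PRMT1 being lost without dKO_PRMT1 replicate 2 (adjusted p = 0.367) or dKO_EV replicate 1 (adjusted p = 0.1).

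Of 9 sorting genes, 1 (11.1%) was higher and 0 lower with each insert, beside 5.96% and 4.24% of all genes higher. It was Sort1, sortilin, which carries prosaposin and progranulin to the lysosome, at 434 and 441 CPM in dKO_PRMT1, 406 and 424 CPM in dKO_MUT, 311 and 332 CPM in dKO_EV and 255 and 253 CPM in WT_EV. WT_EV was lowest, dKO_EV came next and the insert libraries were highest, without overlap between these levels (0.44 ± 0.04, adjusted p = 2.97e-10 with wild-type PRMT1 and 0.37 ± 0.04, adjusted p = 2.67e-08 with the mutant against dKO_EV, 0.34 ± 0.04, adjusted p = 1.71e-07 for dKO_EV against WT_EV). Of 15 genes of the mTORC1 scaffold on the lysosome, 2 were lower and 1 higher with wild-type PRMT1 and 1 lower and 1 higher with the mutant, with Fnip2, a folliculin partner, lower in both (-0.54 ± 0.06, adjusted p = 5.43e-09 with wild-type PRMT1 and -0.48 ± 0.06, adjusted p = 6.45e-08 with the mutant). Without dKO_PRMT1 replicate 2, 1 was lower, and without dKO_EV replicate 1, 0 were higher with wild-type PRMT1. At 13.3% lower and 6.67% higher with wild-type PRMT1, and 6.67% each way with the mutant, the scaffold list lay near the shares of all genes (8.67% and 5.96%, and 7.08% and 4.24%). Of 15 autophagy genes, 3 were lower and 1 higher with wild-type PRMT1 and 1 of each with the mutant (0 higher without dKO_MUT replicate 1 or dKO_EV replicate 1), and Sqstm1, the cargo receptor p62, was lower with both (-0.50 ± 0.05, adjusted p = 1.11e-09 with wild-type PRMT1 and -0.39 ± 0.05, adjusted p = 2.53e-07 with the mutant). The autophagy shares were 20% lower and 6.67% higher with wild-type PRMT1, and 6.67% each way with the mutant. With the mutant both lay near the shares of all genes. Of 3 inhibitors of cysteine cathepsins, 1 was lower and 1 higher with wild-type PRMT1, and 1 lower and 0 higher with the mutant. Each single call was 33.3% of the list, beside the shares of all genes above. Cstb fell with both inserts (-0.53 ± 0.06, adjusted p = 1.03e-08 with wild-type PRMT1 and -0.53 ± 0.06, adjusted p = 1.51e-08 with the mutant). The higher call, at a log2 fold change of 0.21, did not pass with DESeq2 (adjusted p = 0.0548). Its value was 0.13 without dKO_PRMT1 replicate 1 and 0.15 without dKO_EV replicate 2.

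Markers of monocytes, macrophages and dendritic cells changed in the same comparisons. Of 15 such genes tested (18 listed, 17 in the table), 8 were lower and 3 higher with wild-type PRMT1. With the mutant, 10 were lower and 2 higher, and in dKO_EV against WT_EV 8 were lower and 0 higher. Of all genes, 8.67% were lower and 5.96% higher with wild-type PRMT1, and 7.08% and 4.24% with the mutant. In dKO_EV against WT_EV these shares were 7% and 8.44%. Log2 fold changes of the 15 against dKO_EV ran from -1.15 to 1.54 with wild-type PRMT1 and from -1.81 to 1.44 with the mutant. Without dKO_MUT replicate 1, 6 were lower and 1 higher with the mutant, and without dKO_MUT replicate 2, 8 were lower and 1 higher. Csf1r, the receptor for macrophage colony-stimulating factor, had 399 and 387 CPM in dKO_PRMT1, 359 and 353 CPM in dKO_MUT, 464 and 483 CPM in dKO_EV and 539.5 and 524 CPM in WT_EV, with WT_EV highest and the insert libraries lowest. Its log2 fold changes against dKO_EV were -0.27 ± 0.04 (adjusted p = 3.17e-06) with wild-type PRMT1 and -0.41 ± 0.04 (adjusted p = 4.28e-10) with the mutant. The monocyte receptor Ccr2 was higher with both inserts (0.33 ± 0.04 with wild-type PRMT1 and 0.17 ± 0.04 with the mutant, which was lost without dKO_MUT replicate 1 at an adjusted p of 0.0897), and Ly6c2, at 1239 and 1346 CPM in dKO_PRMT1, 1368 and 1271 CPM in dKO_MUT, 1253 and 998 CPM in dKO_EV and 1309.9 and 1184 CPM in WT_EV, did not pass.

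Summed, the 17 markers took 2523 to 2603 CPM in dKO_PRMT1, 2404 to 2514 in dKO_MUT, 2383 to 2644 in dKO_EV and 2905 to 3061 in WT_EV, so the insert groups overlapped dKO_EV in that sum and WT_EV was above all of them. Much of that sum came from Ly6c2, which did not pass and whose dKO_EV libraries lay far apart. The overlap of the sum therefore says little about the other markers. Marco and Timd4, of tissue macrophages, had at most 0.318 CPM in any library. The summed level of neutrophil and granule markers was higher with the inserts. It was 27652 to 28015 CPM in dKO_PRMT1, 27676 to 28251 in dKO_MUT, 20844 to 21792 in dKO_EV and 15291 to 15330.0 in WT_EV over 9 genes. Of these, 8 passed as higher and 1 as lower with wild-type PRMT1, and 8 and 0 with the mutant. The shares of all genes were 5.96% higher and 8.67% lower with wild-type PRMT1, and 4.24% and 7.08% with the mutant. With wild-type PRMT1 the log2 fold changes ran from -1.45 to 0.75, so the 1 fall was larger than any rise. Between the inserts, 3 were higher and 5 lower in dKO_PRMT1 than in dKO_MUT, beside 1.43% and 1.68% of all genes.

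Mast cell and basophil markers were lowest in dKO_PRMT1. Their summed levels were 348 to 369 CPM in dKO_PRMT1, 694 to 698 in dKO_MUT, 564 to 585 in dKO_EV and 1109 to 1154 in WT_EV over 7 genes. These sums did not overlap between groups. Of the 6 tested, 5 were lower and 0 higher with wild-type PRMT1 than in dKO_EV (median log2 fold change -0.73), and 4 were higher and 0 lower with the mutant (0.26). Of all genes, 8.67% were lower with wild-type PRMT1 and 4.24% higher with the mutant. Between the inserts, 5 were lower in dKO_PRMT1 than in dKO_MUT (-0.90), beside 1.68% of all genes. In the empty-vector groups, 5 were lower in dKO_EV than in WT_EV (-0.99), beside 7% of all genes. Cpa3, the mast cell carboxypeptidase, had 108 and 116 CPM in dKO_PRMT1, 213 and 213 CPM in dKO_MUT, 179.7 and 181 CPM in dKO_EV and 355 and 369.9 CPM in WT_EV. WT_EV was highest, dKO_MUT came next and dKO_PRMT1 was lowest.

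The summed level of megakaryocyte markers was lower with both inserts than in dKO_EV. It was 184 to 188 CPM in dKO_PRMT1, 214 to 217 in dKO_MUT, 335 to 344 in dKO_EV and 283 to 297 in WT_EV over 5 genes. Of these 5, 4 were lower and 0 higher with wild-type PRMT1 (median -0.82), beside 8.67% and 5.96% of all genes. With the mutant, 3 were lower and 0 higher (-0.74), beside 7.08% and 4.24%. Against WT_EV, 2 were higher and 0 lower in dKO_EV (0.22), beside 8.44% and 7%. Pf4, platelet factor 4, had 60.8 and 64.6 CPM in dKO_PRMT1, 67.1 and 59.9 CPM in dKO_MUT, 115 and 122 CPM in dKO_EV and 129 and 122 CPM in WT_EV, with the insert libraries below both empty-vector groups. The 6 lymphoid markers summed to 113 to 115 CPM in dKO_PRMT1, 88.0 to 92.9 in dKO_MUT, 76.6 to 80.0 in dKO_EV and 94.5 to 98.8 in WT_EV. Nearly all came from Nkg7. It was higher with wild-type PRMT1 than in dKO_EV (0.54 ± 0.07, adjusted p = 1.06e-07). The 5 erythroid markers summed to 3.56 to 5.52 CPM in dKO_PRMT1, 6.51 to 7.78 in dKO_MUT, 8.72 to 10.1 in dKO_EV and 15.7 to 17.3 in WT_EV. Klf1 was lower with wild-type PRMT1 (-1.17 ± 0.30, adjusted p = 0.00598), which did not pass without dKO_PRMT1 replicate 1 (adjusted p = 0.205). It was also lower in dKO_EV than in WT_EV (-1.12 ± 0.27, adjusted p = 0.00295). The 10 stem and progenitor markers summed to 1388 to 1431 CPM in dKO_PRMT1, 1463 to 1474 in dKO_MUT, 1517 to 1537 in dKO_EV and 1538 to 1586 in WT_EV. Of them, 3 were lower and 1 higher with wild-type PRMT1 (0 higher without either dKO_PRMT1 library or dKO_EV replicate 2), and 1 of each with the mutant. The stem and progenitor shares were 30% lower and 10% higher with wild-type PRMT1, beside 8.67% and 5.96% of all genes. With the mutant they were 10% each way, beside 7.08% and 4.24%. The part of all these cell types in the changes of the lysosomal genes was not tested.

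**Figure D4:**
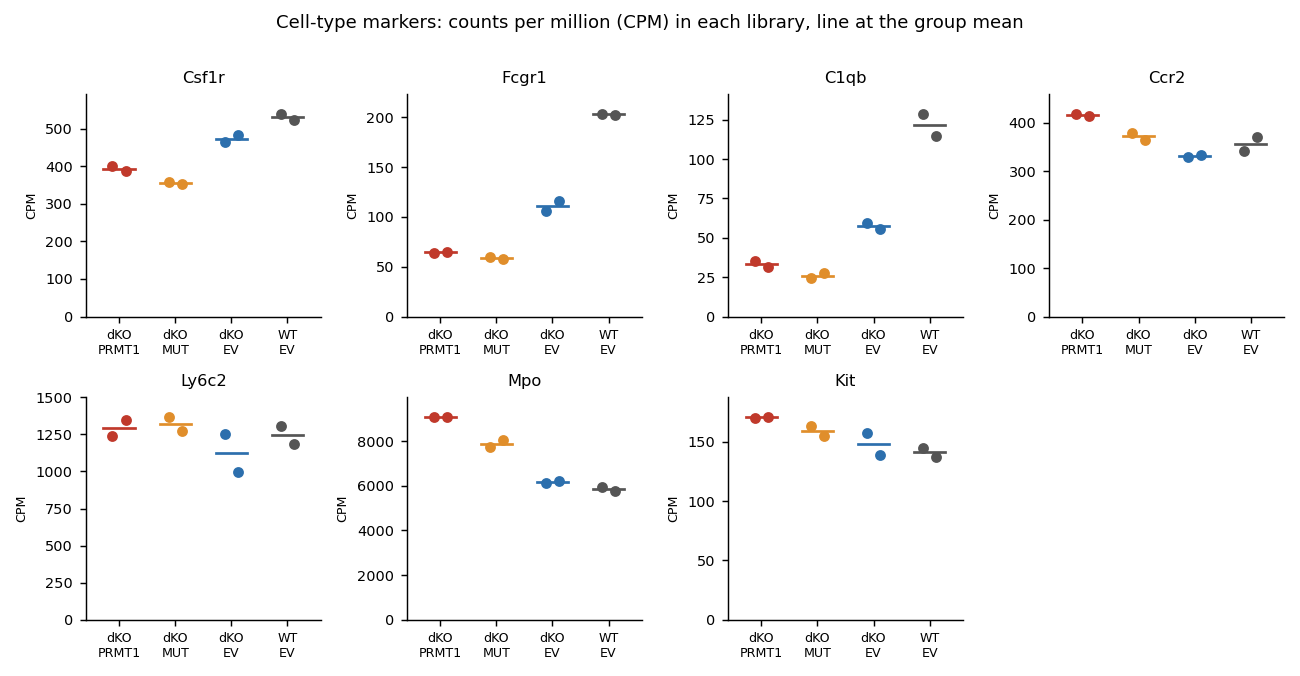
CPM of 7 cell-type markers in each of the 8 libraries, by group, with a line at the group mean of 2 libraries; each axis starts at 0. The macrophage genes Csf1r, Fcgr1 and C1qb are lower in the 4 insert libraries than in the dKO_EV libraries. Ccr2 and the granule enzyme Mpo are higher in the insert libraries, and Kit was read in every library. Of the 15 monocyte, macrophage and dendritic markers tested, 8 were lower and 3 higher with wild-type PRMT1, beside 8.67% and 5.96% of all genes. With the mutant, 10 were lower and 2 higher, beside 7.08% and 4.24%.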

How the data were processed

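RNA-seq was run on 8 libraries of mouse HSPCs, 2 in each of 4 groups taken from the titles. The labels' protocols name RNeasy Plus Micro columns for RNA and NEB's Ultra II Directional chemistry for libraries. Trim Galore 0.6.6, STAR 2.7.6a, featureCounts and build GRCm38/mm10 are listed, per the submitters' processing notes. Annotation release and strand setting were not given in the sources used here. Raw counts per gene were deposited by the authors as whole numbers without normalization, with the gene length beside them. From these, edgeR 4.0.16 in R 4.3.3 fitted all 8 libraries together with group as the only term (filterByExpr, TMM scaling, robust quasi-likelihood test), and p-values were adjusted by Benjamini-Hochberg over the 12744 genes tested. CPM use TMM-scaled library sizes, and TPM use the deposited lengths. The common biological coefficient of variation was 0.0637.

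Alternatives were RLE size factors, no filter beyond 1 count, CPM of at least 1 in 2 libraries, DESeq2 1.42.0, the replicate number as a block, and each library left out in turn, where the lone library of a group is assumed to vary like the others. Within each class, up to 4 genes with the smallest p in a comparison and any gene called in opposite directions were described. Their fold changes for the inserts against WT_EV are printed only in part. A comparison left unprinted for a gene may therefore hold a call. The members and all gene lists were chosen with earlier results of these data known. Promoter windows came from RefSeq, build GRCm38.p6. A small number of genes of these lists are not reported here by name.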

Additional observations from a re-analysis of the deposited data

How the results depend on the processing

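The 98 calls of member genes kept their direction in all settings run. Each of the 8 libraries was left out for every call, so many of those runs removed a library of neither group compared. Such runs bear on a call only indirectly, and they lower the share of calls lost. In 490 recomputations with another scaling, filter, test or block, 482 kept the call and 8 lost it, and in 784 with 1 library left out, 705 kept it and 79, from 32 calls, lost it. Counts of members with 1 library left out ranged as follows: in dKO_EV against WT_EV, 5 to 8 higher and 5 to 8 lower; in dKO_PRMT1 against dKO_EV, 0 higher and 11 to 19 lower; in dKO_MUT against dKO_EV, 0 to 2 higher and 11 to 16 lower; in dKO_PRMT1 against dKO_MUT, 0 to 2 higher and 1 to 5 lower; in dKO_PRMT1 against WT_EV, 2 to 5 higher and 16 to 20 lower; in dKO_MUT against WT_EV, 3 to 4 higher and 15 to 17 lower. With DESeq2, 2 members were higher in dKO_PRMT1 than in dKO_MUT (1 with edgeR) and 2 were higher in dKO_PRMT1 than in WT_EV (4 with edgeR); the cause was not tested. Of the 0 members higher in dKO_PRMT1 than in dKO_EV with edgeR, DESeq2 also called 0. Same-numbered libraries did not deviate together, with correlations between -0.050 and 0.00049. The replicate block left the counts of members as they were in 5 of 6 comparisons and gave 3 higher in dKO_PRMT1 against WT_EV, where Ppt1 had an adjusted p of 0.0517. Groups of 2 libraries limit every test, and depth limits the members read least: Atp6v0c, which was not tested, Mitf and Mcoln1.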
